A study of Ammopiptanthus mongolicus with 6 samples.

Results

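Of 67955 assembled transcripts (unigenes) of Ammopiptanthus mongolicus leaves, 53 were chosen. Their read rate was high at 24 and 72 h of drought and under 2 times the control at 1 h. Limits between the late times and at cold 72 h, given below, also applied. Ammopiptanthus mongolicus is an evergreen broad-leaved shrub of Central Asian deserts. The plants were wild type, the labelled tissue was mesophyll, the photosynthetic tissue inside the leaf, and each of the 6 groups held 1 library. The groups were drought for 1, 24 and 72 h, cold for 1 and 72 h, and an untreated control. How drought and cold were applied, plant age and the time of day at sampling were not given in the sources used here, and the mesophyll label could not be checked against marker genes because the unigenes carry no gene names.

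Under water deficit a leaf loses turgor and accumulates the hormone abscisic acid, which closes stomata and activates many genes. Some genes respond within the first hour, and others need newly made regulators or continued dehydration and appear later, such as those for protective proteins and compatible solutes. Cold also restricts water supply to the leaf, and in Arabidopsis drought and cold share part of their target genes. The unigenes below carry no annotation in the files, so none is assigned to any of these classes and no sequence is shown.

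Members were chosen on measured values. A member had at least 20 reads in drought 24 h and in drought 72 h, and in both libraries its rate, reads over the library total with counts under 3 set to 3, was at least 2.5 times that of the control. Drought 1 h had to lie under 2 times the control, drought 24 h under 2 times drought 72 h, and cold 72 h above 0.5 times the control. No upper limit was set in cold, and cold 1 h was not used. The read minimum left 19212 unigenes, of which 533 reached 2.5 times the control at 24 h and 281 did so at 72 h as well. The limit at drought 1 h kept 82 of these, the limit between the late times kept 78 and the limit at cold 72 h kept 53. The drought 1 h limit alone removed 155 unigenes, the cold 72 h limit alone 25 and the limit between the late times alone 2, while 177 met every criterion except the read minimum.

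Library totals lay between 4.30 M (1 M being 1e+06) and 4.67 M uniquely assigned reads, so read counts of a unigene are nearly comparable between libraries. With 1 library per group there was no replicate check and no p-value. Calls rest on the exact 95% interval of the ratio between 2 libraries (Clopper-Pearson, conditional on the sum of their counts): higher where it lay wholly above 2, lower where wholly below 0.5. Such a call compares libraries and not conditions, and the intervals cover counting error only, not the spread between plants or libraries. Without molecular identifiers several reads can stem from the same molecule, so the intervals may be too narrow even for counting error. In bulk leaf RNA, fewer cells of a type and less RNA per cell cannot be told apart. The cold 72 h library stood apart in scale. Its median ratio to the control over the 19212 unigenes was 0.823 with library totals and 0.999 with trimmed-mean (TMM) factors, while the medians of the other 4 stress libraries lay between 1.02 and 1.04.

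The 53 unigenes together took 0.0452% of the reads in the control (95% exact binomial interval 0.0432 to 0.0471), 0.0708% at drought 1 h (0.0683 to 0.0733), 0.187% at 24 h (0.183 to 0.192) and 0.146% at 72 h (0.143 to 0.150). In cold they took 0.0820% at 1 h (0.0794 to 0.0847) and 0.111% at 72 h (0.108 to 0.115). Unigene36225_All alone held 1612 of their 8058 reads at drought 24 h, so these sums lean on a few abundant members. Most members were scarce. The median count was 14 reads in the control, 19 at drought 1 h, 53 at 24 h and 51 at 72 h, and 30 of the 53 had under 20 control reads. Per length, the median level was 7.36 RPKM (reads per kilobase of unigene and per 1e+06 reads of the library) in the control, 8.56 at drought 1 h, 25.2 at 24 h and 26.2 at 72 h. The cold libraries had medians of 14.1 (1 h) and 10.85 RPKM (72 h).

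In late drought the median member stood at 3.56 times the control at 24 h (range 2.64 to 22.1) and at 3.13 times at 72 h (2.52 to 53.04). These folds chose the members and are given as a description. Counting error is wide at such depths, and 30 members were called higher at 24 h, where 1.62% of the 19212 unigenes and 0.697% of all unigenes with a read were called. At 72 h 24 members were called, beside 0.968% of the 19212 and 0.396% of all, and 14 were with a 99% interval. Of the 53, 18 were called at both late times and 17 at neither, while 12 were called at 24 h alone and 6 at 72 h alone. Membership therefore rests on point ratios for many of them.

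**Figure D1:**
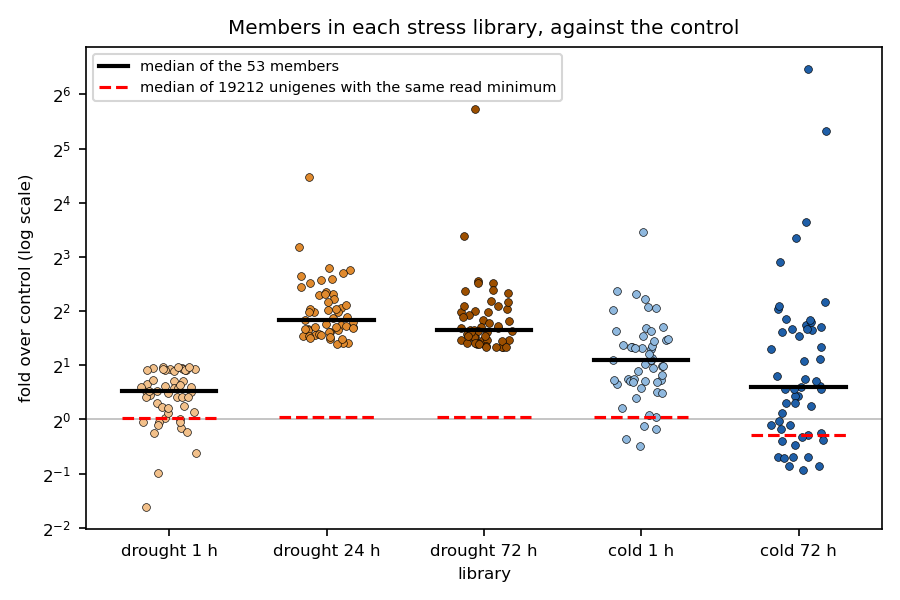
Fold over the control (log scale, counts under 3 set to 3) of the 53 members in each stress library. Points are unigenes, black bars the median of the members (3.56 at drought 24 h, 3.13 at drought 72 h, 2.13 at cold 1 h and 1.52 at cold 72 h) and red dashes the median of the 19212 unigenes with the same read minimum; each library was 1 sample, and the control and every library but cold 1 h entered the choice of members.

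The unigenes nearest the thresholds show how fine these were. Unigene16766_All, just inside the fold threshold, had 8 reads in the control, 24 at drought 24 h and 20 at 72 h, a smaller late fold of 2.52. CL7888.Contig1_All, just outside it, had 37, 85 and 95 reads in the same libraries and a smaller late fold of 2.497. At the read minimum, CL9229.Contig2_All with 25 and 20 late drought reads was kept and CL1024.Contig1_All with 22 and 19 was not. On the 2 sides of a threshold the values were nearly equal.

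The steepest late increase belonged to CL6604.Contig2_All (2548 bases), also the longest member. It had 0 reads in the control and 0 at drought 1 h, then 61 at 24 h and 158 at 72 h. With the control library set to a floor of 3 counts, its fold was 22.1 at 24 h and 53.04 at 72 h. The lower 95% bounds, computed from 0 control reads, were 17.4 and 42.6. The 72 h library stood 2.40 times above the 24 h library (95% interval 1.78 to 3.28). It is the member with the highest ratio of drought 72 h to 24 h.

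CL566.Contig1_All (791 bases) was the 1 member that was called lower than the control at drought 1 h, beside 0.203% of the 19212 unigenes. Its counts were 10 in the control, 0 at 1 h, 55 at 24 h and 41 at 72 h. Taking 3 counts for the drought 1 h library, which had no read, its fold over that library was 18.4 at 24 h and 12.7 at 72 h. The lower 95% bounds, computed from 0 reads, were 14.4 and 9.86. Both cold libraries were also above the control, with 40 reads at 1 h and 30 at 72 h, so drought 1 h was the only library without a read. Unigene22458_All also had few reads at drought 1 h, 3 beside 5 in the control, and then 29 at 24 h and 20 at 72 h.

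The most abundant members per length were Unigene36225_All (433 bases), Unigene1905_All (688 bases) and Unigene4154_All (1023 bases). Unigene36225_All had 424 reads in the control, 763 at drought 1 h, 1612 at 24 h and 1289 at 72 h, and its level at 24 h was 865.8 RPKM. Its ratio at drought 1 h was 1.95 (1.73 to 2.20), barely under the limit of 2, so it was already above the control by more than counting error. Unigene4154_All was alike in this, at 1.87 times the control at 1 h (1.58 to 2.23), with 211 reads in the control, 364 at 1 h, 967 at 24 h and 550 at 72 h. Unigene1905_All had 119, 166, 717 and 422 reads in the same order. All 3 were higher at 24 h than at 72 h.

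CL6133.Contig2_All (340 bases) and Unigene34254_All (733 bases) were at both late times well above the control and at drought 1 h near it. CL6133.Contig2_All had 35 reads in the control, 33 at drought 1 h, 161 at 24 h and 199 at 72 h. Its ratio to the control was 1.02 at 1 h (0.616 to 1.70), 4.999 at 24 h (3.45 to 7.43) and 5.73 at 72 h (3.98 to 8.45). Unigene34254_All had 56, 69, 253 and 250 reads in that order. At cold 72 h both lay close to the lower limit of the choice, at 0.524 for Unigene34254_All (0.318 to 0.843), the lowest of the 53, and at 0.621 for CL6133.Contig2_All (0.340 to 1.11). Members called at both late times, with the whole drought 1 h interval under 2, numbered 7 of 53. The choice used all of these libraries and the share of other unigenes was not computed, so this count is a description. Besides CL6133.Contig2_All and Unigene34254_All, the 7 were CL566.Contig1_All, Unigene1905_All, Unigene31270_All, Unigene32526_All and Unigene37302_All, listed here after their values were seen.

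**Figure D2:**
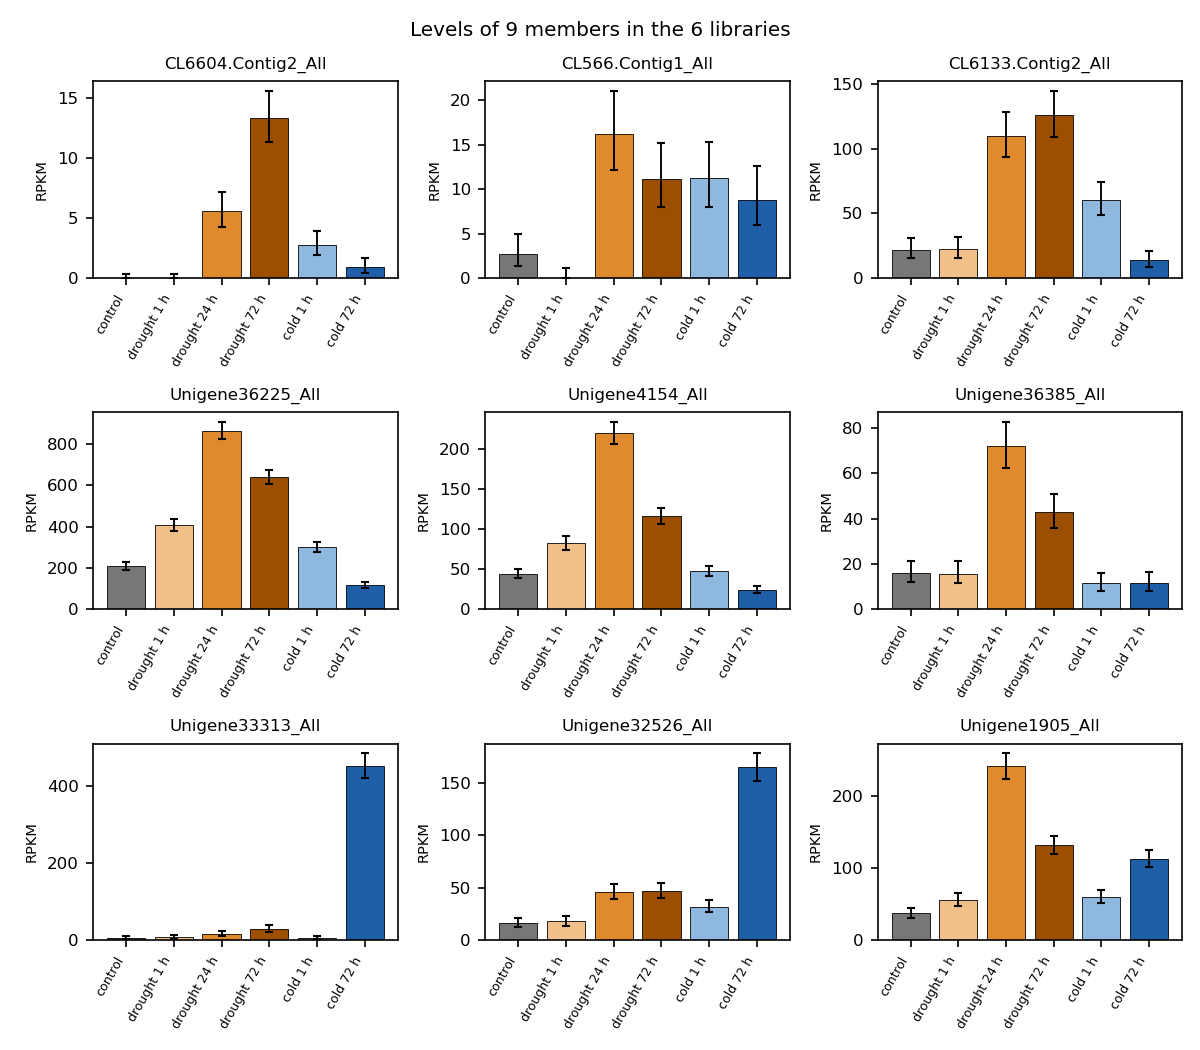
RPKM of 9 members in the 6 libraries, with exact 95% Poisson intervals as bars; each panel has its own axis from 0 and each column is 1 library. CL6604.Contig2_All was without a read in the control and drought 1 h, Unigene36225_All, Unigene4154_All and Unigene1905_All were highest at drought 24 h, and Unigene33313_All and Unigene32526_All were highest at cold 72 h.

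At drought 1 h the members lay under 2 times the control, as the choice required, and above it more often than below. The choice also set the control low, which raises ratios to it, so the counts that follow are a description. The median was 1.45 times the control, beside 1.02 over the 19212 unigenes. Of the 53, 42 were above the control, 10 were below it and CL6604.Contig2_All had no read in either library. The interval lay wholly above 1 for 11 members. These counts were not made over the other unigenes. No member was called higher, beside 0.609% of the 19212 unigenes, and the whole interval lay under 2 for 11. Values from drought 1 h to the late times were set side by side as an addition after the data had been seen. The choice put every late rate above that at drought 1 h, so these counts and folds are a description, from which nothing is read against the other unigenes. At 24 h the median member was 2.64 times drought 1 h and 18 were called higher, beside 0.468% of the 19212 unigenes. At 72 h the median was 2.47 times and 12 were called, beside 0.26%. For 31 members neither late time was called above drought 1 h, and 8 were called at both late times, among them CL6133.Contig2_All, Unigene30418_All and Unigene37302_All.

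For most members the 2 late libraries lay close together. The median member at 72 h was 0.904 times its 24 h rate (range 0.527 to 2.40), and 20 of 53 were higher at 72 h. No member was called in either direction, where 0.141% of the 19212 were called higher and 0.177% lower, but the choice itself limited the lower side. The interval excluded 1 upward for 4 members and downward for 12. Upward these were CL6604.Contig2_All, CL2929.Contig1_All (234 reads at 72 h against 146 at 24 h), Unigene33313_All (51 against 26) and Unigene25560_All (114 against 78), named after their values were seen. Downward, the lowest ratios were those of Unigene4154_All at 0.527 (0.474 to 0.586), Unigene33737_All at 0.530 (0.290 to 0.943) and Unigene1905_All at 0.545 (0.482 to 0.616).

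Cold 1 h is the library that the choice of members did not use. There the members stood between the control and late drought: the median was 2.13 times the control, beside 1.04 over the 19212 unigenes, 49 of 53 lay above the control, and 8 were called higher, beside 0.645% of the 19212 and 0.336% of all unigenes with a read. None was called lower, beside 0.354%. The control was chosen low and is shared by this comparison and by those with drought, so a low control count raises all of these ratios. Late drought was chosen high, so the place of cold 1 h between the 2 is a description. Under the TMM, median-of-ratios and upper-quartile factors 5 members were called, and 3 were with a 99% interval.

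The 8 called members were CL6604.Contig2_All, Unigene13756_All, Unigene27060_All, Unigene35903_All, CL566.Contig1_All, Unigene29162_All, CL1850.Contig1_All and CL2929.Contig1_All. CL6604.Contig2_All had 32 reads at cold 1 h and 0 in the control, a fold of 11.1 against the floor (lower 95% bound 8.48, computed from 0 reads). Unigene13756_All (316 bases) had 67 reads at cold 1 h against 14 in the control, a ratio of 4.96 (2.76 to 9.55). It was more abundant at cold 1 h than at drought 72 h, where it had 45 reads, and it had 12 reads at cold 72 h. Unigene27060_All (589 bases) had 36 reads at cold 1 h against 8 in the control, a ratio of 4.66 (2.13 to 11.6), and also 36 reads at drought 72 h. Unigene6946_All (426 bases) had 15 reads against 2 and was not called (7.77, 1.81 to 70.0).

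At the other end, Unigene36385_All (639 bases) had 33 reads at cold 1 h against 48 in the control, a ratio of 0.712 (0.443 to 1.13). CL9229.Contig2_All had 3 against 4 reads, Unigene17993_All 12 against 14 and Unigene33313_All 8 against 9. All 4 intervals held 1, so a difference from the control was not detectable at this depth.

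**Figure D3:**
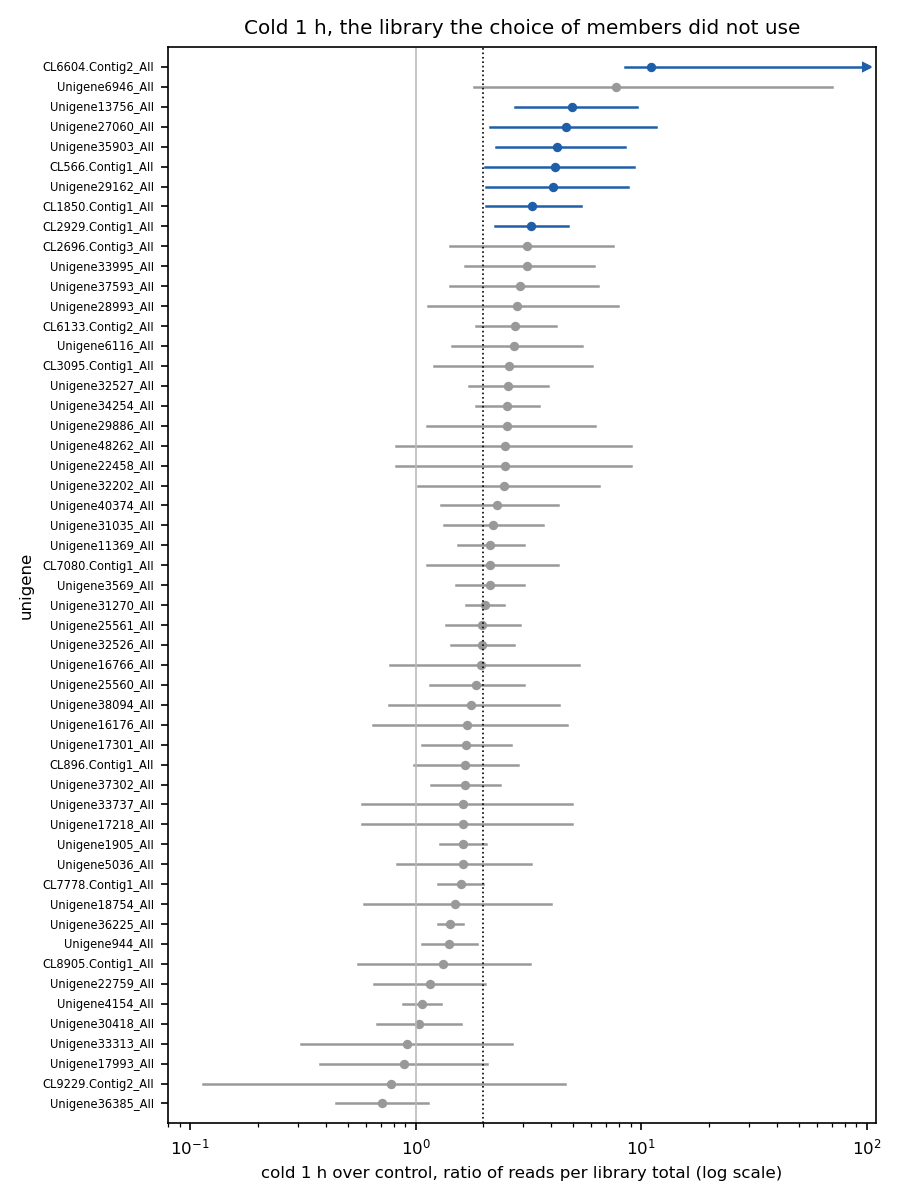
Ratio of cold 1 h to the control for each of the 53 members (log scale) with exact 95% counting intervals, 1 library each. The 8 members called higher, with the interval wholly above 2 (dotted line), are in blue; for CL6604.Contig2_All, with 0 control reads, the point is the fold against a floor of 3 counts and the arrow marks an open upper bound.

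Cold 1 h was also set beside drought libraries, which leaves out the control. Against drought 1 h the median member at cold 1 h was at 1.56 times its rate, beside 1.02 over the 19212 unigenes, and 41 of 53 were above it. Called higher were 2, beside 0.135%, and they were CL566.Contig1_All and CL6604.Contig2_All, both without a read at drought 1 h. None was called lower, beside 0.588%, although the interval lay wholly below 1 for Unigene4154_All at 0.569 (0.479 to 0.675), Unigene36225_All at 0.731 (0.655 to 0.815) and CL7778.Contig1_All at 0.816 (0.670 to 0.992). Drought 1 h had been limited from above by the choice, so part of the distance was set by it.

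Against drought 72 h, chosen high, the median member at cold 1 h was 0.572 times as abundant, and 46 of 53 were lower. The 4 called lower, beside 0.276% of the 19212 unigenes, were CL6604.Contig2_All, Unigene33313_All, Unigene36385_All and Unigene4154_All. None was called higher, beside 0.177%. Unigene36385_All had 33 reads at cold 1 h against 127 at drought 72 h, a ratio of 0.267 (0.176 to 0.395).

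At cold 72 h the members spread out more than in any drought library, with folds over the control between 0.524 and 88.6 and a median of 1.52, or 1.85 under TMM factors. Over the 19212 unigenes, too, calls above the control were more frequent at cold 72 h (3.58%) than at drought 24 h (1.62%). The choice limited drought 1 h from above and late drought from below, but it set no upper limit at cold 72 h. The wider spread is therefore only a description of the members. Called higher were 12, beside 3.58% of the 19212 unigenes and 3% of all with a read, and none was called lower, beside 5.89%, the choice having set the lower limit. Only 2 members, CL2929.Contig1_All and CL6604.Contig2_All, were called higher in both cold libraries, beside 0.219% of the 19212, and 18 were called in at least 1 of them, beside 4.01%. The members' counts rest on a control that the choice set low.

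Unigene33313_All (377 bases) had the highest fold. It had 734 reads, 452.6 RPKM, at cold 72 h and 9 in the control, a ratio of 88.6 (46.4 to 195), but 8 reads at cold 1 h. Its drought counts were 11, 26 and 51 reads at 1, 24 and 72 h. Its late drought level was thus a small fraction of that in long cold. Unigene48262_All (370 bases) was similar, with 184 reads at cold 72 h against 5 in the control, a ratio of 39.98 (16.8 to 124.6), and with 32 and 26 reads in late drought. Unigene22759_All (456 bases) had 180 reads at cold 72 h against 26 in the control, and it was among the lowest at drought 1 h, with 12 reads.

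Directly at 72 h, the median member in cold was 0.477 times its drought level, where the median of the 19212 unigenes was 0.804. Under TMM factors these values were 0.578 and 0.974. The choice required a high drought 72 h and bounded cold 72 h from below, so these values and the counts of calls are a description of the members. In cold 11 members were called lower than in drought, beside 7.04% of the 19212, and 4 were called higher, beside 3.31%. The 4 were Unigene33313_All, Unigene48262_All, Unigene32526_All and Unigene32527_All. CL6133.Contig2_All was among the 11, with 20 reads in cold against 199 in drought, a ratio of 0.108 (0.0648 to 0.172), and so were Unigene34254_All, with 27 against 250, and Unigene36225_All, with 216 against 1289.

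By point ratios, the working name of the set, higher late in drought only, did not hold for most members. With a cut of 2 times the control, 35 of 53 reached it in at least 1 cold library, 66.0% of members, beside 8.59% of the 19212 unigenes with the same read minimum. All of these ratios share the control with the choice of members. By the same cut 18 members reached it in neither cold library, 13 in the 1 h library alone, 7 in the 72 h library alone and 15 in both, beside 91.4%, 2.2%, 5.14% and 1.25% of the 19212. With a cut of 1.5 times, 6 were below it at both cold times. By calls, which take counting error into account, fewer stood out. Called higher than the control in at least 1 cold library were 18 of 53, beside 4.01% of the 19212, and 35 were called in neither.

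**Figure D4:**
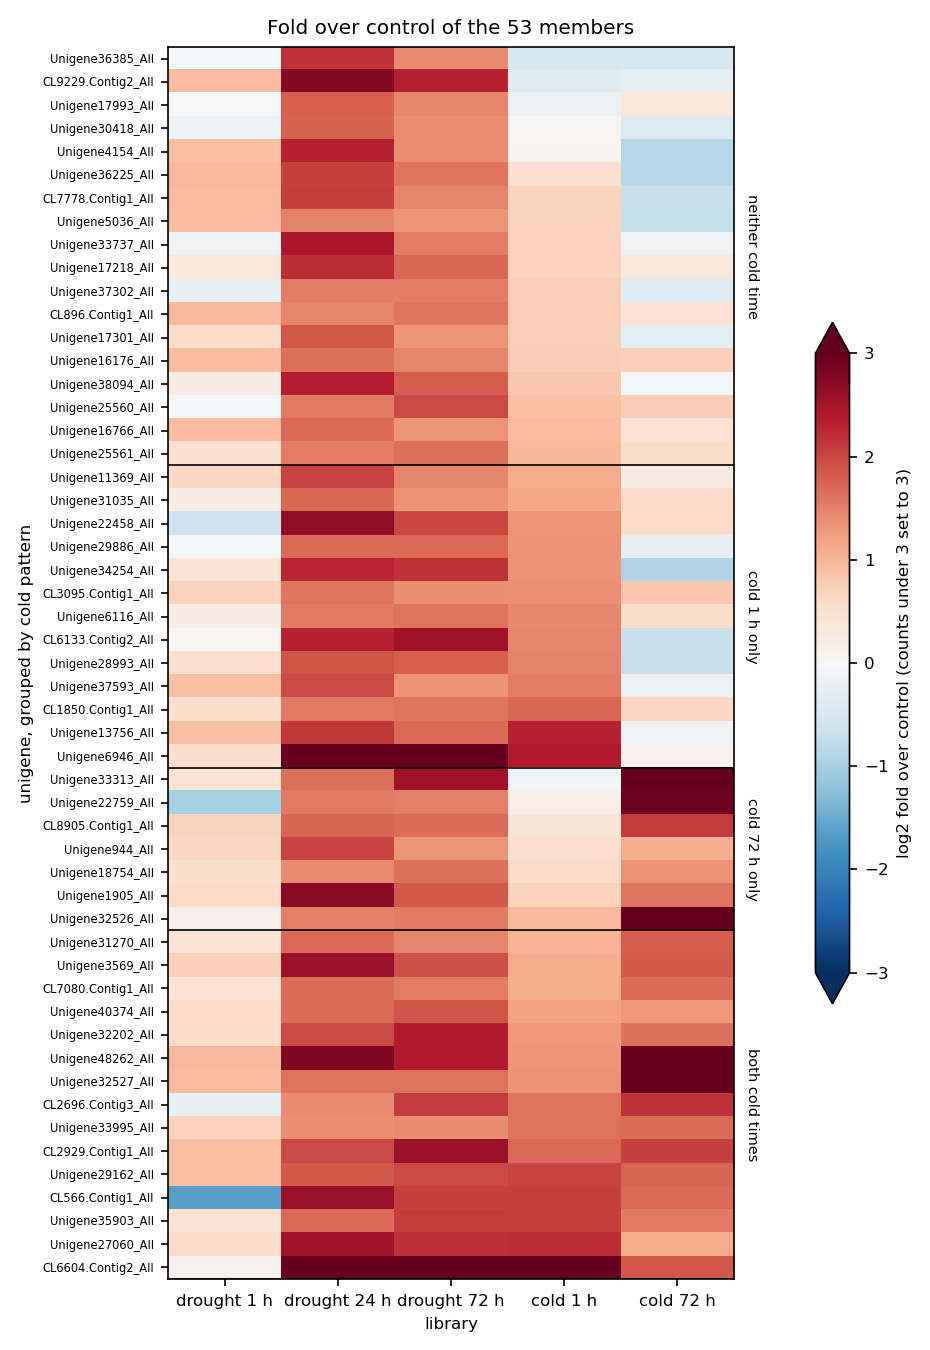
Log2 fold over the control (counts under 3 set to 3, colours ending at 3 in each direction) for the 53 members in 5 stress libraries, 1 sample each. Lines divide the members into 18 under 2 times the control at both cold times, 13 at or above it at 1 h of cold alone, 7 at 72 h alone and 15 at both.

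The 18 members below the cut in cold had median folds of 3.57 and 2.82 at drought 24 and 72 h, 1.63 at cold 1 h and 0.873 at cold 72 h. Unigene36385_All had 48 reads in the control, 43 at drought 1 h, 198 at 24 h and 127 at 72 h, with 33 and 32 reads at the cold times. Unigene30418_All (1039 bases) had 46, 38, 144 and 121 reads in the drought order and 46 and 32 in cold. Unigene37302_All (1066 bases) had 55, 43, 146 and 159 reads, with 88 at cold 1 h and 39 at 72 h. In Unigene36385_All and Unigene30418_All, the control, drought 1 h and both cold libraries lay together and the late drought libraries apart from them. At or below the control in both cold libraries were only 2 members, Unigene36385_All and CL9229.Contig2_All. The drought 72 h library was called above both cold libraries for 3, namely Unigene36385_All, Unigene4154_All and CL6604.Contig2_All, picked out after their values were seen. Drought 72 h was chosen high, so this count is a description. The share of other unigenes with both calls was not computed.

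The 13 members at the cut in cold 1 h only had a median fold of 2.74 there and of 1.09 at cold 72 h. CL6133.Contig2_All had 93 reads at cold 1 h and 20 at 72 h, and Unigene34254_All had 137 and 27, beside 35 and 56 in the control. Both intervals lay above 1 at 1 h, and neither member stood above the control at 72 h. The 15 members at the cut at both cold times had medians of 3.11 at 1 h and 3.36 at 72 h, and 3.56 and 4.13 at drought 24 and 72 h. CL2929.Contig1_All (1291 bases) had 40 reads in the control, 69 at drought 1 h, 146 at 24 h and 234 at 72 h, with 125 and 152 reads in cold. Unigene31270_All (649 bases) had 158, 193, 469 and 433 reads in drought order, with 309 and 509 in cold. Unigene3569_All (818 bases) had 52, 79, 288 and 196 reads, with 107 and 171 in cold. In these 3 members drought 1 h was the stress library nearest the control, which the choice and the cut in cold had set.

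Across the 6 libraries, the highest rate of a member was at drought 24 h for 28, at drought 72 h for 13, at cold 72 h for 9 and at cold 1 h for 3. The control was the lowest library for 28 of 53. The choice held late drought high and drought 1 h and the control low, so these counts are a description. The same counts were not made over the other unigenes. The 3 highest at cold 1 h were Unigene13756_All, CL1850.Contig1_All and Unigene29162_All, identified after their values were seen.

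The choice used neither length nor identifier. Members had a median length of 589 bases (216 to 2548), beside 883 for the 19212 unigenes, and 43.4% were under 500 bases, beside 20.2%. Their control counts were also lower, a median of 14 reads beside 72, but the choice set the control low. At drought 72 h, chosen high, the medians were 51 and 72 reads. A link between length and count was not tested. The shortest, Unigene38094_All with 216 bases, had 10 reads in the control, 47 at drought 24 h and 35 at 72 h. Contigs of a cluster, which may be close copies or alternative splice products and so compete for the same reads, made up 12 of the 53, or 22.6%, beside 31.5%.

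Each of the 12 contigs came from a different cluster of 2 to 4 contigs, and its reads were summed with the rest of that cluster. The cluster sum was at least 2.5 times the control at both late times for 6 of 12 and under 2 times at 72 h for 5. The remaining contigs were called higher at 72 h in none of the clusters, although their interval lay above 1 in 4 clusters and below 1 in CL2696. At 24 h they were called higher in CL8905 (4.438, 2.817 to 7.254) and CL9229 (2.573, 2.327 to 2.847). In 5 of the 12 clusters, then, the whole was under 2 times the control at 72 h while the member was above 2.5 times.

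The rest of cluster CL6604 had 267 reads at drought 72 h against 283 in the control, a ratio of 0.9502 (0.801 to 1.13), while CL6604.Contig2_All held 37.2% of the cluster's reads at 72 h and none of them in the control. CL2929.Contig1_All held 45.5% of its cluster at drought 72 h against 15.3% in the control, and the rest of the cluster was at 1.28 times the control (1.07 to 1.53). CL2696.Contig3_All held 8.84% against 1.86%, and the rest was at 0.833 times the control (0.727 to 0.954). In cluster CL6133 the member held 88.1% of the reads at drought 72 h and the cluster sum was 4.65 times the control (3.40 to 6.46), most of it the member's own reads.

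CL9229.Contig2_All was a small part of its cluster, at 1.84% of 1085 reads at drought 72 h and 0.718% of 557 in the control. The rest of that cluster was already at 2.11 times the control at drought 1 h (1.90 to 2.34), and at 2.57 times at 24 h and 1.94 times at 72 h. CL8905.Contig1_All (1878 bases) was likewise joined by its cluster, whose other contigs had 24 reads in the control, 98 at drought 24 h and 55 at 72 h. The sum of cluster CL8905 was at 1.985 times the control at drought 1 h, 4.099 times at 24 h and 2.59 times at 72 h. Its other contigs alone were at 2.171 times at 1 h (1.304 to 3.705), 4.438 times at 24 h and 2.308 times at 72 h. In both clusters, then, the other contigs were already above the control at 1 h, where the sum of cluster CL9229 was at 2.105 times.

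**Figure D5:**
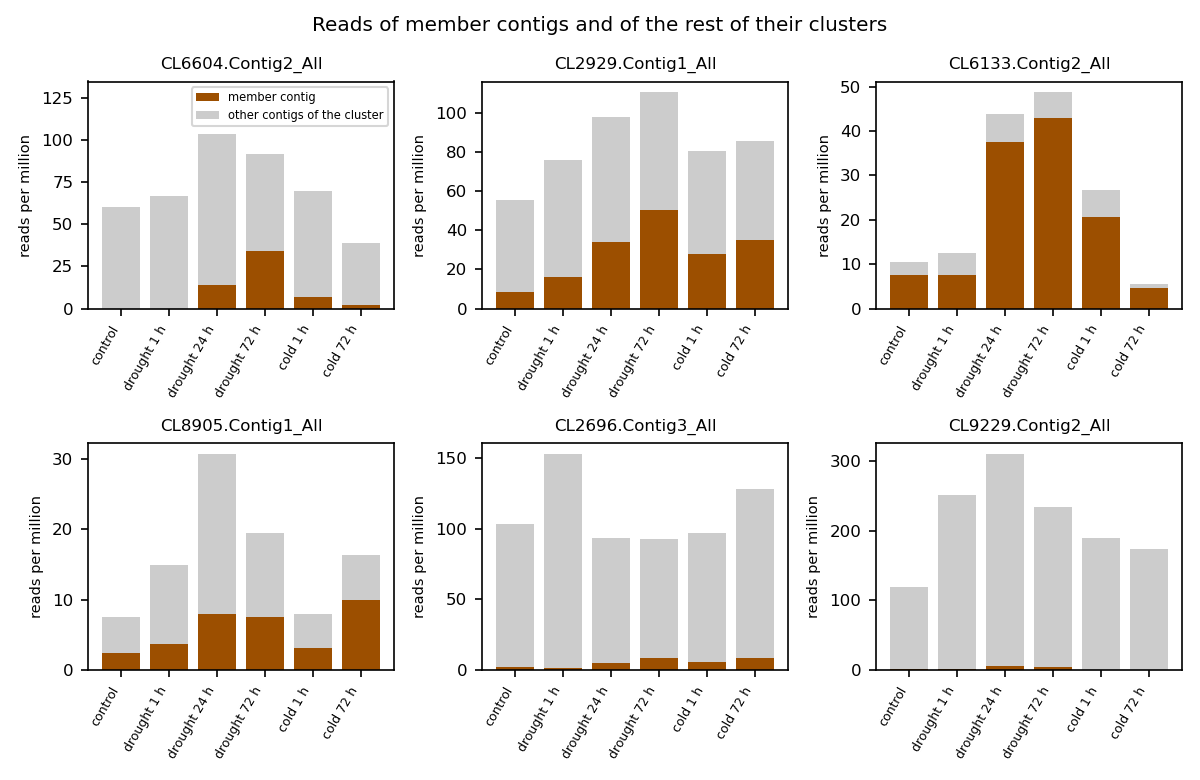
Reads per 1e+06 library reads of 6 member contigs (brown) and of the other contigs of their clusters (grey, stacked above) in the 6 libraries, 1 sample each, with a separate axis from 0 per panel. CL6604.Contig2_All and CL2929.Contig1_All took a larger share of their clusters in late drought (37.2% and 45.5% at 72 h), while CL6133.Contig2_All made up most of its cluster throughout.

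At drought 72 h, chosen high, reads covered a median of 87.2% of a member's length, beside 86.0% for the 19212 unigenes. Under 50% was covered there in 7 members, 13.2% beside 11.6%. Median coverage of members was lower in the control, 68.2% beside 86.0%, and at drought 1 h, 74.3% beside 85.1%. Unigene6946_All had 2, 4, 25 and 31 reads in the control and at drought 1, 24 and 72 h, and in cold 15 and 2, all within 51 to 57 covered bases of its 426. CL896.Contig1_All had 76 reads at drought 72 h over 189 of 1555 bases and 25 in the control over 203. In both, the reads covered about as many bases in late drought as in the control, and RPKM, which divides by the whole length, understates the level of a short covered stretch. The covered part of CL8905.Contig1_All was larger in late drought, with 894 bases at 72 h against 448 in the control.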

How the data were processed

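Leaf RNA of 6 libraries was sequenced, and the authors deposited 1 table a library with unigene length, the count of reads assigned uniquely, RPKM and the percent of the length covered, per the file headers. The aligner was Bowtie 0.12.2, per the submitters' processing notes. Assembler, strand use and filters were not given in the sources used here. Deposited RPKM values equalled the count per kilobase and 1e+06 reads of the header total (largest relative deviation 8.68e-09). A unigene not listed was taken as 0 reads. Groups follow the treatment and time in the labels, 1 library each, although the series' design speaks of replicates, so no count model was fitted and ratios carry exact counting intervals (scipy 1.17.1). Interval rule and choice of members were run on simulated counts with Poisson error only and large planted changes. The simulated counts for the choice were higher than those of most members, so its behaviour at their depth was not tested. Members, comparisons and lists were chosen with earlier results of these data known. Lists of genes and markers by name could not be applied.

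Named unigenes are the 6 members with the highest lower bound of pooled late drought over control, the 6 highest in late drought RPKM, the extremes in cold, in drought 1 h and between late times (3 or 4 each), the longest, the shortest and those nearest a threshold, 25 members in all. Other unigenes named were picked after seeing values. Scaling alternatives came from edgeR 4.0.16 (TMM, upper-quartile) and DESeq2 1.42.0 (median-of-ratios). Further ones were other floors, read minimums, folds, bounds and confidence levels, and RPKM with 1 added. The work ran in Python 3.11.15 and R 4.3.3, with pandas 2.3.3 for tables, numpy 2.4.6 and, for figures, matplotlib 3.10.9.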

Additional observations from a re-analysis of the deposited data

Results flagged for a closer look

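For 5 of the 53 members, the intervals at the same hour lay on opposite sides of the control in the 2 stresses. The difference was not tested across samples, with 1 library each. At 1 h, CL566.Contig1_All was at 4.14 times the control in cold (2.04 to 9.29) and without a read in drought (upper bound 0.484). The same pattern held for 0.422% of the 19212 unigenes with at least 20 reads in both late drought libraries. The other contig of cluster CL566 was at 0.797 times the control at cold 1 h (0.422 to 1.48) and 0.292 times at drought 1 h (0.107 to 0.691). The cluster sum was at 1.73 (1.12 to 2.69) and 0.211 (0.0793 to 0.481) in that order. Under TMM, median-of-ratios and upper-quartile factors the member's lower bound in cold was 1.94, 1.94 and 1.97, so its call above 2 was lost. At 72 h the other 4 were below the control in cold and above it in drought, as were 4.2% of the 19212. The drought side was required of members at 72 h, and the control is shared. Unigene4154_All was at 0.551 (0.432 to 0.698) in cold and 2.63 (2.24 to 3.09) in drought. Unigene36225_All was at 0.553 (0.468 to 0.654) and 3.06 (2.74 to 3.43) in the same order. Unigene34254_All was at 0.524 (0.318 to 0.843) and 4.50 (3.35 to 6.12). CL7778.Contig1_All was at 0.616 (0.455 to 0.829) and 2.77 (2.25 to 3.42). The scale of the cold 72 h library touches these values. Under TMM factors the cold upper bound became 0.848 for Unigene4154_All and 0.794 for Unigene36225_All, but 1.02 for Unigene34254_All and 1.01 for CL7778.Contig1_All. Median-of-ratios factors also took the last 2 past 1 (1.04 and 1.03), and upper-quartile factors left them below it (0.970 and 0.954).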

How the results depend on the processing

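The 34 results, the number of members, members called, cold patterns and median folds, gave 218 values under the alternatives, of which 45 moved and none reversed direction. The other 173 stayed within 1.5 times the count reported or, for a median fold, within its 95% order-statistic interval over the members. Among these, the number of members was 61 (upper-quartile), 65 (TMM) and 73 (median-of-ratios) under other scaling, 52 and 65 with floors of 1 and 10 reads and 78 without the cold 72 h limit, and calls at drought 24 h were 21 with a 99% interval. The comparisons of late drought with drought 1 h and their alternatives were added after seeing the data. With at least 50 late reads there were 25 members, with a late fold of 2 there were 184, with 4 there were 9, and with both late intervals above 2 there were 18. The scaling factors moved 1 count beyond 1.5 times, members called higher at cold 1 h, which was 5 with each. With the interval only excluding 1 and a ratio of at least 2, calls against the control were 53 at drought 24 h, 53 at drought 72 h, 26 at cold 1 h and 21 at cold 72 h. The same bound gave 44 at drought 24 h and 38 at drought 72 h over drought 1 h, 1 higher at drought 72 h than at 24 h, 14 higher at cold 1 h than drought 1 h, 18 lower at cold 1 h than drought 72 h and 28 lower at cold 72 h than drought 72 h. With a ratio of RPKM + 1 of at least 2 (or at most 0.5) and 5 RPKM in either library, these 10 counts were 52, 51, 26, 20, 41, 33, 1, 12, 12 and 26 in the same order. An interval beyond 4 left 4, 2, 1 and 5 against the control and 2 and 2 over drought 1 h, and it left 0 lower at cold 1 h than drought 72 h, and 2 higher and 4 lower at cold 72 h than drought 72 h. A 99% interval left 14 at drought 72 h and 3 at cold 1 h against the control. The 1 member lower at drought 1 h was lost, leaving 0, with the 99% interval, the bound of 4, at least 50 reads in the 2 libraries and RPKM + 1. With at least 50 reads, 0 were higher at cold 1 h than drought 1 h. A cut of 1.5 times the control put 6 members in neither cold library and 20 at cold 1 h only. No paired analysis was possible because each group has 1 library, and for the same reason no replicate could be left out. Depth limits the set: 24 members had under 50 reads in both late libraries.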

Other observations

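Among the 41 members with a Unigene number, 2 pairs carried consecutive numbers, noticed after their values were seen. Unigene25560_All and Unigene25561_All had 29 and 45 reads in the control, 26 and 59 at drought 1 h, 78 and 120 at 24 h and 114 and 141 at 72 h. In cold they had 52 and 86 reads at 1 h and 45 and 61 at 72 h. Unigene32526_All and Unigene32527_All had 62 and 36 reads in the control, 63 and 64 at drought 1 h, 162 and 102 at 24 h, 180 and 111 at 72 h, 118 and 89 at cold 1 h and 582 and 412 at cold 72 h. The members of this second pair were both highest at cold 72 h, at 10.2 times (7.84 to 13.5) and 12.4 times (8.83 to 18) the control. Whether the unigenes of a pair belong to 1 transcript was not tested.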
